A study of Arabidopsis thaliana with 18 samples.

Results

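Seeds of *Arabidopsis thaliana* that took up water containing salt were compared between a pair of complemented genotypes, and the genotype effect is described here gene by gene. The genes were chosen by one rule, a mean of at least 10 normalised counts over the 6 salt libraries, which kept 16348 of the 33602 genes in the comparison made by the study's authors. All 16348 had an adjusted p-value, and the rule used no difference between the genotypes. Just inside the limit lay AT3G45820 (mean 10.02), AT5G40060 (10.02) and AT5G41400 (10.03), and just outside it CYCD4;1 (9.98), AT1G35780 (9.97) and AT2G42360 (9.96).

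The ΔDS seeds carry a complementing copy of the gene under study from which the DS segment is deleted, and the +WT seeds carry an intact complementing copy. That gene is FLOE1 (AT4G28300), as known for this study and not from the labels. Seeds of both genotypes lay for 5 days at 4 °C in darkness on MS agar with 220 mM NaCl and then had 4 hours of light at 22 °C, and 3 libraries of each genotype were sequenced. The other 12 libraries of the series, 3 of each genotype as dry seeds and 3 of each imbibed the same way at 0 mM NaCl, serve here only to show where the salt effect differs. Separate mother plants are not named for the replicates, nor is the number of transgenic lines behind each genotype. The p-values therefore measure the spread between these samples, and effects of the deletion and of a line cannot be told apart.

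FLOE1 is a seed protein that gathers into condensates as the embryo takes up water, and it is known for its part in deciding whether seeds germinate when water is scarce. Salt lowers the water potential of the medium and holds seeds back at the stage when they restart transcription and repair DNA damage that built up in the dry state. In plants the DNA damage response runs from the kinases ATM and ATR through the transcription factor SOG1 to repair enzymes, to nucleotide supply and to inhibitors of the cell cycle.

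The authors' deposited table for salt gives each gene 1 mean over the 6 libraries, a log2 fold change with its standard error (SE, 3 libraries against 3) and an adjusted p, and no value per library. A positive fold change is read as higher in ΔDS, since ΔDS stands first in the name of the comparison and no header states the direction. If the order were the other way round, every sign would turn. The group means given below were worked out from the mean and the fold change and have no error of their own. Mean normalised counts summed to 26080227, size factors seen in genes with a single read spanned 1.38-fold, and the 10 most abundant genes held 18.1% of the counts. Markers of mature seed were abundant in both genotypes, with 965516 counts in ΔDS and 1253465 in +WT seeds for the 12S globulin gene CRA1. Only 1 of 6 seed coat markers (MUM2), 5 of 8 embryo and meristem markers and 4 of 5 endosperm markers had a mean of at least 10, and BAN, TT10, TT12, TTG2 and PER36 were below it. None of the 5 embryo markers passed the test, and their summed level was 2352 counts in ΔDS and 2404 in +WT seeds. Among endosperm markers EPR1 was lower in ΔDS (-0.49 ± 0.16 log2 in the authors' deposited table) and MAN7 and AGL62 were higher, EPR1 losing its call when scaled by library totals, and their summed level, nearly all EPR1, was 583574 in ΔDS and 815095 in +WT seeds. AGL62 was near 0 in +WT seeds and reached the mean of 10 almost only through its ΔDS counts. The part of these marker shifts in the results below was not tested. In whole seeds, fewer cells of a type and less RNA per cell cannot be told apart.

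FLOE1 itself had an implied 431 normalised counts in ΔDS and 13777 in +WT salt seeds, 31.9-fold lower in ΔDS (log2 fold change -5.00 ± 0.067 in the authors' deposited table, adjusted p listed as 0). The gene lies at chr4:14014646-14017097 on the plus strand of TAIR10.1. The sources used here do not say how reads from the shortened copy were assigned, so a lower transcript level and a loss of countable sequence cannot be told apart. From the authors' deposited tables the decrease was 0.58 log2 units smaller in salt than in imbibed seeds (adjusted p of the difference = 0.0162) and 0.53 smaller than in dry seeds (0.000146). The relatives FLOE2 (AT5G14540, 0.17 ± 0.10) and FLOE3 (AT3G01560, -0.11 ± 0.085) did not pass the test in the authors' deposited table, though FLOE2 does when scaled by library totals (0.33). The gene just before FLOE1, AT4G28290, had 24.0 counts in +WT and was near 0 in ΔDS seeds. It reached the mean of 10 almost only through its +WT counts. The next members upstream were also lower in the authors' deposited table, RMA2 (AT4G28270) at -0.39 and AT4G28260 at -0.25 log2 units, which makes 4 neighbouring members in a row that were lower. AT4G28260 does not pass when scaled by library totals. The sources used here do not say whether counting used the strand, so reads of overlapping genes cannot be told apart.

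In all, 2534 of 16348 genes (15.5%) passed an adjusted p of 0.05, 1247 higher (7.63%) and 1287 lower (7.87%) in ΔDS. Higher genes were of middling abundance with a median mean of 587 counts and a median 1.36-fold increase, and lower genes were abundant, with a median mean of 1858 and a median 1.24-fold decrease. Large changes were mostly increases, with 238 genes at least 2-fold higher against 59 at least 2-fold lower, and 35 against 2 at 8-fold. Among the 288 genes with a mean above 10000 counts, 56 were higher and 132 lower. Their median SE was 0.049 log2, against 0.37 for genes of 10 to 100 counts, where 219 were higher and 46 lower. The median called increase was 2.79-fold in that low class and 1.18-fold above 10000 counts, and the median decrease 2.29-fold and 1.25-fold. Rare genes thus needed larger folds to pass than abundant ones. The lower genes together made up 39.2% of the counts in ΔDS and 46.3% in +WT seeds. When the libraries are scaled by their totals instead, as implied by the table, every fold change moves up by 0.16 log2 units, and 3674 genes (22.5%) are higher and 418 (2.56%) lower. Reading the deposited ratios of fold change to SE against a t distribution with 4 degrees of freedom, a stricter reading of the same ratios, leaves 3 calls, TSO2, FLOE1 and GMI1, with 2392 genes at an unadjusted p below 0.05.

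**Figure D1:**
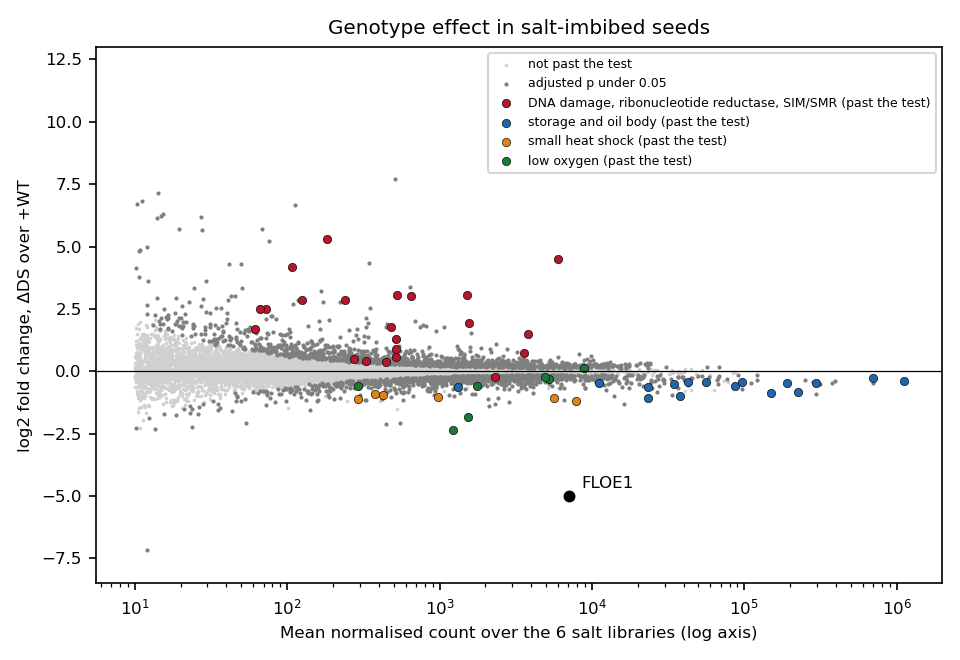
Mean normalised count of each of the 16348 genes (log axis) against its log2 fold change, ΔDS over +WT, in salt-imbibed seeds. Light grey points did not pass an adjusted p of 0.05, dark grey points did, and coloured points are called members of 4 gene groups. The raised DNA damage genes lie at middle abundance, and the lowered storage genes at the right edge with small decreases.

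Genes of the DNA damage response were raised in ΔDS salt seeds, with TSO2, SMR7 and BRCA1 at the top. Of 30 members of a list of damage signalling and repair genes, 16 were higher and 1 was lower in ΔDS, against 7.63% and 7.87% of all genes, with a median log2 fold change of 0.40 where all genes had 0.00. TSO2 and RNR1 of ribonucleotide reductase, the enzyme that makes the building blocks of DNA, and 3 of 6 members of the SIM and SMR family of cell cycle inhibitors were higher too. Scaling by library totals leaves 18 members of the damage list higher and 0 lower, against 22.5% and 2.56% of all genes.

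The stretches just before the start of 4 of these genes are printed here because they hold the sequence that SOG1 is known to bind in Arabidopsis, CTTNNNNNNNAAG, which reads the same on both strands. Each is the 250 bases before the annotated gene start in the TAIR10.1 genome, 5′ to 3′ on the gene's strand, with the motif in capitals. PARP2 is read at chr4:1049516-1049765 (plus strand), SMR7 at chr3:10231568-10231817 (minus strand), COM1 at chr3:19325785-19326034 (plus strand) and SMR5 at chr1:2305032-2305281 (minus strand).
PARP2: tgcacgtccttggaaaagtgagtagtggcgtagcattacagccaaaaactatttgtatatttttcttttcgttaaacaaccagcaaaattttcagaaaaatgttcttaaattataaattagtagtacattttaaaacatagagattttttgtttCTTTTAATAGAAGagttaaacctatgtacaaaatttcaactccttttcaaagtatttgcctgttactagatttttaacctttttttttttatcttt
SMR7: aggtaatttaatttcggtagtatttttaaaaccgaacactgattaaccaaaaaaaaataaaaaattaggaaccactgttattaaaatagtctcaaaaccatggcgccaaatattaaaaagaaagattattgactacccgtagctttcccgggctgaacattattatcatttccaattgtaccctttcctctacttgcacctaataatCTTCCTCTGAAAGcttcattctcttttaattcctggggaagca
COM1: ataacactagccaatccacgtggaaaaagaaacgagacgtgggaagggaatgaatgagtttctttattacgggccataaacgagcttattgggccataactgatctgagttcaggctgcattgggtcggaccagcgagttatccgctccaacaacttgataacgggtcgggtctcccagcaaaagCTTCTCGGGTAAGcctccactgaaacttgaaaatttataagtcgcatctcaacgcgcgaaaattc
SMR5: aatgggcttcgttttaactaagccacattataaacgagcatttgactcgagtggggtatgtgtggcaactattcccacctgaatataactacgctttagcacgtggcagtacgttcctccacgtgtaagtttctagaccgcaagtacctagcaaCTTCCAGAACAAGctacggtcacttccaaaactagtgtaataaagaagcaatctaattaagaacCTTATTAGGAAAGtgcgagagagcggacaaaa
The motif was present in 7 of the 21 raised damage, ribonucleotide reductase and SMR genes, in 0 of the 17 members of those lists that did not pass, and in 8.75% of all 16327 stretches read. Among all higher genes the share was 8.74%. A match describes the letters in this window only.

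The transcription factor SOG1 and the kinases ATR and ATM at the head of the pathway changed by less than 1 log2 unit. SOG1 (AT1G25580) had 378 counts in ΔDS and 282 in +WT seeds (0.42 ± 0.13 log2 in the authors' deposited table, adjusted p = 0.0166). ATR, the kinase that senses single-stranded DNA, was higher at 0.38 ± 0.11, and ATM, the kinase that senses double-strand breaks, was lower at -0.22 ± 0.076 in the authors' deposited table. ATM loses its call when scaled by library totals (-0.06). RAD17, which loads the checkpoint clamp, was 3.40-fold higher with 746 counts in ΔDS against 219 in +WT seeds, by the authors' deposited table. ANAC044, a relative of SOG1 and one of its known targets, had 124 counts in ΔDS and 22.2 in +WT seeds (2.48 ± 0.32 in the authors' deposited table).

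Among repair genes the increases ran from below 1 to more than 4 log2 units. GMI1 (AT5G24280), an SMC-like repair protein induced by gamma rays, had 2710.0 counts in ΔDS against 327 in +WT seeds, 8.28-fold higher (3.05 ± 0.10 log2 in the authors' deposited table, adjusted p = 1.53e-188). PARP2 (AT4G02390), a poly(ADP-ribose) polymerase that marks broken DNA, had 940 counts in ΔDS and 114 in +WT seeds (3.05 ± 0.14 in the authors' deposited table), and its relative PARP1 (AT2G31320) was 2.45-fold higher. XRI1, an X-ray induced gene, had 2470.4 in ΔDS and 640.1 counts in +WT seeds (1.95 ± 0.086 in the authors' deposited table). Genes of homologous recombination, which copies from an intact strand, were higher too. BRCA1 (AT4G21070) had 204 counts in ΔDS and 11.2 in +WT seeds, the end resection gene COM1 219.9 in ΔDS and 30.0 in +WT, and RAD54 676 in ΔDS and 368 in +WT. In the authors' deposited table these were log2 increases of 4.18 ± 0.33 for BRCA1, 2.87 ± 0.25 for COM1 and 0.88 ± 0.11 for RAD54. The single-strand binding subunit RPA1E (2.50 ± 0.33) and the translesion polymerase POLH (0.49 ± 0.14) were also higher in the authors' deposited table.

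The genes that join broken ends directly did not pass the test. In the authors' deposited table KU70 stood at -0.14 ± 0.097, KU80 at -0.17 ± 0.095 and LIG4 at 0.05 ± 0.12. The break-binding complex of MRE11 (0.23 ± 0.10), RAD50 (-0.05 ± 0.069) and NBS1 (0.18 ± 0.17) did not pass in the authors' deposited table either, nor did the photolyases PHR1 and UVR3. MRE11 does pass when scaled by library totals (0.38). A p that misses the threshold does not show that these levels were equal.

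Genes that supply nucleotides were raised with the repair genes. TSO2 (AT3G27060), the inducible small subunit of ribonucleotide reductase, had 11446 normalised counts in ΔDS and 506 in +WT seeds, a 22.6-fold difference (4.50 ± 0.070 log2 in the authors' deposited table, adjusted p listed as 0). The large subunit gene RNR1 had 5665 in ΔDS and 2000.1 counts in +WT seeds (1.502 ± 0.064), and the other small subunit gene, RNR2A, had 1566 in ΔDS and 1489 in +WT (0.07 ± 0.071, adjusted p = 0.609) in the authors' deposited table. Thymidine kinase TK1A, which salvages thymidine for DNA synthesis, was 8.17-fold higher (1164 counts in ΔDS, 142 in +WT).

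Cell cycle inhibitors of the SMR family rose with them. SMR7 (AT3G27630) had 356 counts in ΔDS and 9.10 in +WT seeds (5.29 ± 0.33 in the authors' deposited table), SMR1 94.7 in ΔDS and 29.1 in +WT (1.70 ± 0.32), and SMR5 4473 in ΔDS and 2664 in +WT (0.75 ± 0.070). SMR5 was the most abundant of the 6 members in both genotypes. SIM, SMR2 and SMR8 did not pass. In imbibed seeds 3 of the 6 members were also higher and 0 lower, against 23% and 21.8% of all genes. The test of the difference between salt and imbibed seeds was passed by 0 of the 6. The mitotic cyclin gene CYCB1;1, which DNA damage is known to induce, was 6.89-fold higher in the authors' deposited table, while CDKA;1 (0.01 ± 0.078) and CDKB2;1 (-0.04 ± 0.40) did not pass.

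**Figure D2:**
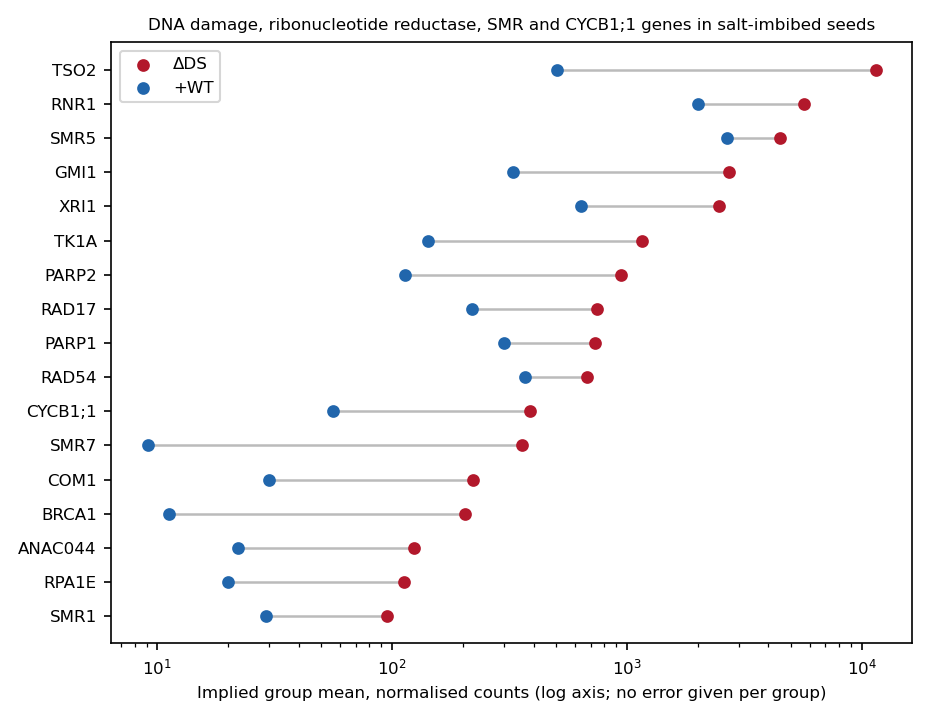
Implied group means in normalised counts (log axis) of 17 raised genes of the DNA damage, ribonucleotide reductase, SMR and cyclin lists, in ΔDS (red) and +WT (blue) salt-imbibed seeds, ordered by the ΔDS level. All ΔDS points lie to the right, with the widest gaps for SMR7, TSO2 and BRCA1, and no error is shown because the table gives none per group.

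DNA replication genes were higher as well, most of them from low levels. Of 16 members 10 rose and 0 fell, against 7.63% and 7.87% of all genes, and the median of the 16 log2 fold changes was 1.08. The helicase subunits MCM2 (71.3 counts in ΔDS, 22.3 in +WT), MCM3 (36.9 in ΔDS, 11.0 in +WT), MCM4 (68.1 in ΔDS, 36.5 in +WT) and MCM6 (23.2 in ΔDS, 6.17 in +WT) passed, and MCM5 and MCM7 did not. MCM6 was below 10 counts in +WT seeds and reached the mean of 10 only through its ΔDS counts. The polymerase subunits TIL1 (1.80 ± 0.13) and ICU2 (0.93 ± 0.23), the clamp gene PCNA2 (1.24 ± 0.18), the clamp loader RFC1 (0.24 ± 0.063), ETG1 (1.56 ± 0.39) and the transcription factor gene E2FA (1.23 ± 0.41) were higher in the authors' deposited table. Most of these transcripts were rare, below 100 counts in +WT seeds, apart from TIL1 and RFC1. The increase was not limited to salt. In imbibed seeds 13 of the 16 members were higher and 0 lower, against 23% and 21.8% of all genes. The difference, salt minus imbibed, was positive for 1 member and negative for 0, against 7.16% and 4.06% of all genes. The E2F motif TTTCCCGC, on either strand, lay within 250 bases before the start of 3 of the 10 raised genes, against 0.551% of all genes. Among all higher genes the share was 0.882%. Another sequence looked for, TGGGCC, was in 6 of the 10, against 18.8% of all genes. Neither was counted in the replication genes that did not pass.

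Many of the damage genes were also raised in imbibed seeds, and none passed the test in dry ones. In the authors' deposited tables, 0 of 27 tested members of the damage list passed in dry seeds, where 6.3% of all genes did, and 13 of 30 were higher and 6 lower in imbibed seeds, where 44.8% of all genes passed, 23% higher and 21.8% lower. The difference itself passed for some members. TSO2 stood at 4.50 in salt, 3.05 in imbibed and -0.32 in dry seeds, 1.45 more in salt than imbibed (adjusted p of the difference = 3.91e-13) and 4.82 more than in dry seeds (2.48e-34). The excess in salt over imbibed seeds was 1.93 for BRCA1 (0.000219), 1.04 for TK1A (0.00367), 0.93 for GMI1 (0.00627), 0.54 for RNR1 (0.000117) and 0.54 for PARP2 (0.0375). In all, 4 of 30 members of the list had a larger effect in salt than in imbibed seeds and 0 a smaller one, where 7.16% and 4.06% of all genes did. For COM1 the difference was 0.24 (0.758), which did not pass the threshold.

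**Figure D3:**
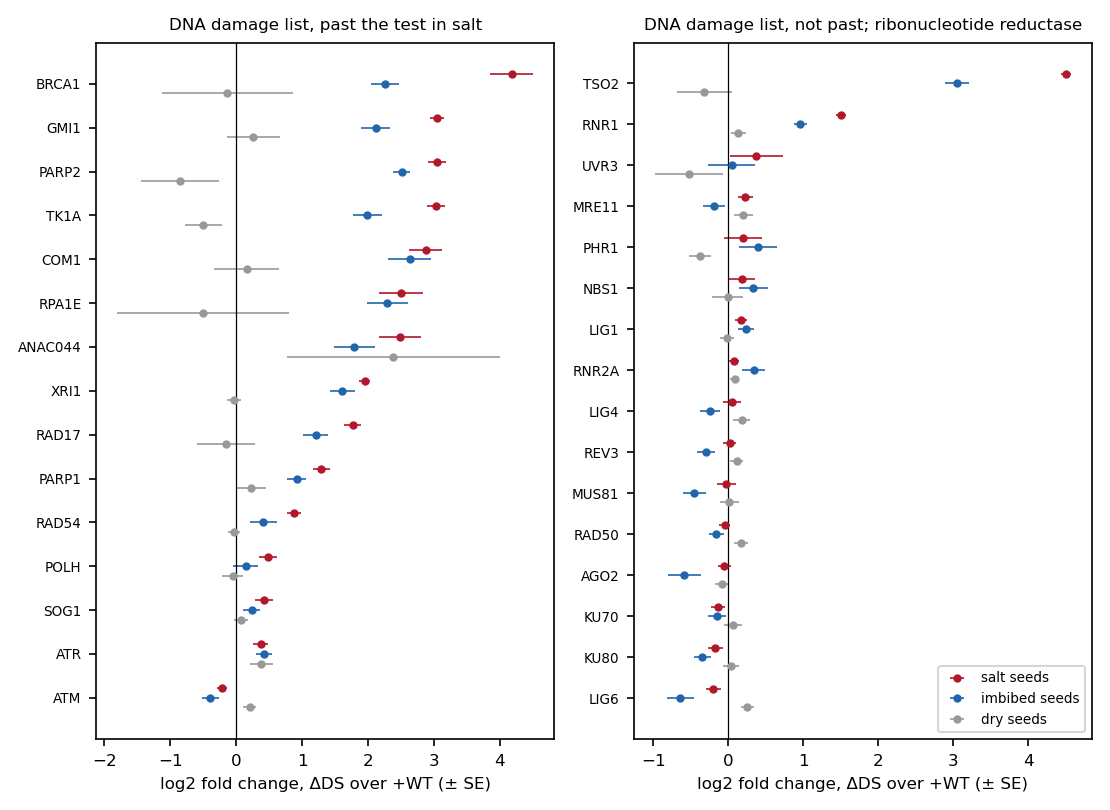
Log2 fold changes, ΔDS over +WT, with SE, of the DNA damage list and ribonucleotide reductase in salt (red), imbibed (blue) and dry (grey) seeds, from the authors' deposited tables. Left, 15 of the 17 members past the test in salt; right, the members that did not pass together with the 3 ribonucleotide reductase genes. Salt and imbibed points lie right of 0 for most genes on the left, and dry points scatter around 0.

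Storage and late embryogenesis abundant (LEA) genes were lower in ΔDS. Of the lists, 16 of 22 storage and oil body genes and 12 of 19 LEA genes fell, against 7.87% of all genes, and 0 rose, and the storage list summed to 2698969 counts in ΔDS and 3648461 in +WT seeds. With scaling by library totals 15 storage genes stay lower, and the LEA list has 3 higher and 7 lower. With that scaling 22.5% of all genes are higher and 2.56% lower. For storage genes the effect was a smaller decrease in salt than in imbibed seeds for 15 of 22 members, where 7.16% of all genes had a more positive difference. In imbibed seeds 22 of 22 storage and 16 of 19 LEA genes were lower, against 21.8% of all genes, with medians of -1.27 and -1.03. In dry seeds 14 of 22 and 15 of 19 were lower, against 3.24% of all genes, with medians of -0.18 and -0.20. The medians in salt were -0.45 and -0.22, and 0 members of either list were higher in imbibed or dry seeds. The albumin genes SESA4 and SESA5 are shown because their upstream stretches carry the RY motif CATGCA (in capitals, either strand, overlapping copies merged), which B3 factors of seed maturation such as ABI3 bind. SESA4 is read at chr4:13613346-13613595 (plus strand) and SESA5 at chr5:22239188-22239437 (minus strand) of TAIR10.1, 250 bases before each start.
SESA4: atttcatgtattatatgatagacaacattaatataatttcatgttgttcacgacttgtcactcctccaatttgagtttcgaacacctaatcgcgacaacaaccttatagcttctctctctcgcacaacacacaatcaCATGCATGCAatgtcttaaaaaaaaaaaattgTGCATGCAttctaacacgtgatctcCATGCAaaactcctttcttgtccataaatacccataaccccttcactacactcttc
SESA5: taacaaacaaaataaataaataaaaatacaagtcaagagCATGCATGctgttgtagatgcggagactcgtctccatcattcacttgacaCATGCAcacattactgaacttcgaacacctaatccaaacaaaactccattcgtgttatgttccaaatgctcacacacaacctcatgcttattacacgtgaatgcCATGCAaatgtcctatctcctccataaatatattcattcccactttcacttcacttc
In SESA4 (14975 counts in ΔDS, 31812 in +WT) 6 motif starts were found, and in SESA5 (106064 in ΔDS, 192807 in +WT) 4. Of the 16 lowered storage genes 15 held the RY motif in this window, against 7.01% of all genes and 10.9% of all lower genes. Of the 12 lowered LEA genes 8 held the G-box CACGTG, against 7.96% of all genes and 14.3% of all lower genes. The motifs were not counted in the storage and LEA genes that did not fall. ABI3 itself did not pass (0.09 ± 0.046 in the authors' deposited table), nor did the G-box factor gene ABI5 (-0.04 ± 0.050). The albumin genes resemble each other closely, and the sources used here do not say where reads that match several were counted.

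Several heat shock genes, which protect proteins in dry and heated seeds, fell. Of 11 small heat shock genes 6 fell, against 7.87% of all genes, and 0 rose. HSP17.4 (AT3G46230) had 3665 counts in ΔDS and 7675 in +WT seeds (-1.07 ± 0.077 in the authors' deposited table), and HSP17.6C (AT1G53540) 184 in ΔDS and 399.7 in +WT (-1.12 ± 0.15). The disaggregase gene HSP101 (-1.33 ± 0.38) and HSP90.1 (-1.16 ± 0.40) also fell in the authors' deposited table, but their SE was 7.69 and 7.79 times the median of genes of like abundance, and HSP90.1 loses its call when scaled by library totals (adjusted p = 0.0506). HSFA2, a heat shock factor gene, did not pass at -0.68 ± 0.59. The housekeeping chaperone HSC70-1 was 1.14-fold higher. In imbibed seeds 7 of the 11 small heat shock genes were lower and 0 higher in ΔDS, against 21.8% and 23% of all genes. Their median log2 fold change was -1.78 there and -0.93 in salt. The test of the difference between salt and imbibed seeds was passed by 0 of the 11. In dry seeds 4 of the 11 small heat shock genes were higher and 0 lower in ΔDS, against 3.05% and 3.24% of all genes. The effect was lower in salt than in dry seeds for 6 and higher for 0, against 4.47% and 1.74% of all genes. The 250 bases before the start of HSP17.4, at chr3:16984868-16985117 (minus strand) of TAIR10.1, are shown with the heat shock element GAANNTTC, the binding sequence of heat shock factors, in capitals.
HSP17.4: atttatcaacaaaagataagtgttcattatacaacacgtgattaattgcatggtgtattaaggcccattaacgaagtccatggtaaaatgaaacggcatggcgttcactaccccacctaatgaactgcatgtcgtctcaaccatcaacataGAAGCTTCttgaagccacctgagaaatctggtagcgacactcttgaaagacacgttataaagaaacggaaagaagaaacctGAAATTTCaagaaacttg
The element was present in 2 of the 6 lowered genes and 9.21% of all genes, and HSP17.4 was shown because it holds it. Another sequence looked for, TGGGCC on either strand, was in 5 of the 6, against 18.8% of all genes. Neither was counted in the small heat shock genes that did not fall.

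Chaperones of the endoplasmic reticulum, which fold secreted proteins, included BIP2, BIP3 and CNX1, which fell in salt and rose in plain imbibition. In salt 7 of 14 genes of this list fell, against 7.87% of all genes, and 0 rose. In imbibed seeds 9 rose, against 23% of all genes, and 3 fell, a share near the 21.8% of all genes. BIP2 (AT5G42020), the main luminal chaperone, had 3428 counts in ΔDS and 4415 in +WT salt seeds (-0.36 ± 0.070 in the authors' deposited table), against 1.46 ± 0.24 in imbibed seeds, a difference of -1.82 (adjusted p = 8.69e-10). BIP3 (AT1G09080), a stress-induced relative, had 19.2 counts in ΔDS and 53.4 in +WT salt seeds (-1.47 ± 0.49), against 2.68 ± 0.46 in imbibed seeds in the authors' deposited tables (-4.15, 9.97e-07). The difference was also negative for the lectin chaperones CNX1 (-1.10) and CRT2 (-1.48), for BIP1 (-1.01), SHD (-1.005) and ERDJ3B (-1.08), and in all for 9 of 14 members, with 2 positive, against 4.06% and 7.16% of all genes. The decreases in salt were small apart from BIP3 and ERDJ3A (-1.06 ± 0.32 in the authors' deposited table), and only 3 of 7 hold when scaled by library totals. The sensor genes IRE1A and BZIP28 were lower in both salt and imbibed seeds.

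Jasmonate genes were lower. Of 13 members 7 fell, against 7.87% of all genes, and 0 rose, with a median log2 fold change of -0.63. For synthesis, AOS (AT5G42650) had 449 counts in ΔDS and 791 in +WT seeds (-0.82 ± 0.11 in the authors' deposited table) and OPR3 251 in ΔDS and 372 in +WT (-0.57 ± 0.13). The central transcription factor gene MYC2 had 261 counts in ΔDS and 469.9 in +WT seeds (-0.85 ± 0.14), and the repressor genes JAZ1, JAZ2, JAZ3 and JAZ8, which MYC2 is known to induce, lay between -0.55 and -1.70 in the authors' deposited table. JAR1, which conjugates jasmonate to isoleucine, did not pass (0.03 ± 0.083). CYP94C1, a P450 of jasmonate breakdown, fell too, with 355 counts in ΔDS and 789 in +WT seeds (-1.15 ± 0.10 in the authors' deposited table, adjusted p = 1.71e-26), and its difference from imbibed seeds was -0.87 (0.00178). In imbibed seeds 7 of the 13 list members were lower and 0 higher, against 21.8% and 23% of all genes, with a median of -0.88. The list does not hold CYP94C1. Among its 13 members the difference, salt minus imbibed, was positive for 2 and negative for 0, against 7.16% and 4.06% of all genes. JAZ1 and JAZ8 lose their call when scaled by library totals.

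Of 10 genes of the low oxygen response 6 fell and 1 rose, against 7.87% and 7.63% of all genes. Scaled by library totals 4 are lower and 2 higher, against 2.56% and 22.5% of all genes. Some of the largest decreases had a very wide spread. HRA1 (AT3G10040), a hypoxia-induced transcription factor gene, had 399.7 counts in ΔDS and 2053 in +WT seeds (-2.36 ± 0.65 in the authors' deposited table, adjusted p = 0.00402), with an SE 8.46 times the median of like genes. LBD41 (AT3G02550) had 671 counts in ΔDS and 2409 in +WT seeds (-1.84 ± 0.46, 5.91 times), and the neighbouring small genes AT4G10270 and AT4G10265 of the wound-responsive family were at -2.12 ± 0.43 and -2.09 ± 0.65 in the authors' deposited table. Which libraries differed cannot be read from the values used here. With steadier values, the oxygen sensors PCO1 (-0.58 ± 0.090) and PCO2 (-0.59 ± 0.17) and the fermentation genes ADH1 (-0.32 ± 0.056) and PDC2 (-0.21 ± 0.059) fell in the authors' deposited table, and RAP2.12, a factor that the oxygen sensors destabilise, was slightly higher (0.15 ± 0.044). PCO2 and PDC2 lose their call when scaled by library totals. Of the 10 list members 3 were lower and 0 higher in imbibed seeds, against 21.8% and 23% of all genes. The median log2 fold change was -0.26 there and -0.27 in salt. The difference, salt minus imbibed, was positive for 3 of the 10 and negative for 0, against 7.16% and 4.06% of all genes. In imbibed seeds HRA1 stood at -0.27 and LBD41 at -0.04 log2 units, and in dry seeds at 0.22 and -0.04, none past the test. For these 2 genes the difference passed against dry seeds (-2.58, adjusted p = 0.00901, for HRA1 and -1.81, 0.00537, for LBD41) and not against imbibed seeds (0.241 and 0.297).

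**Figure D4:**
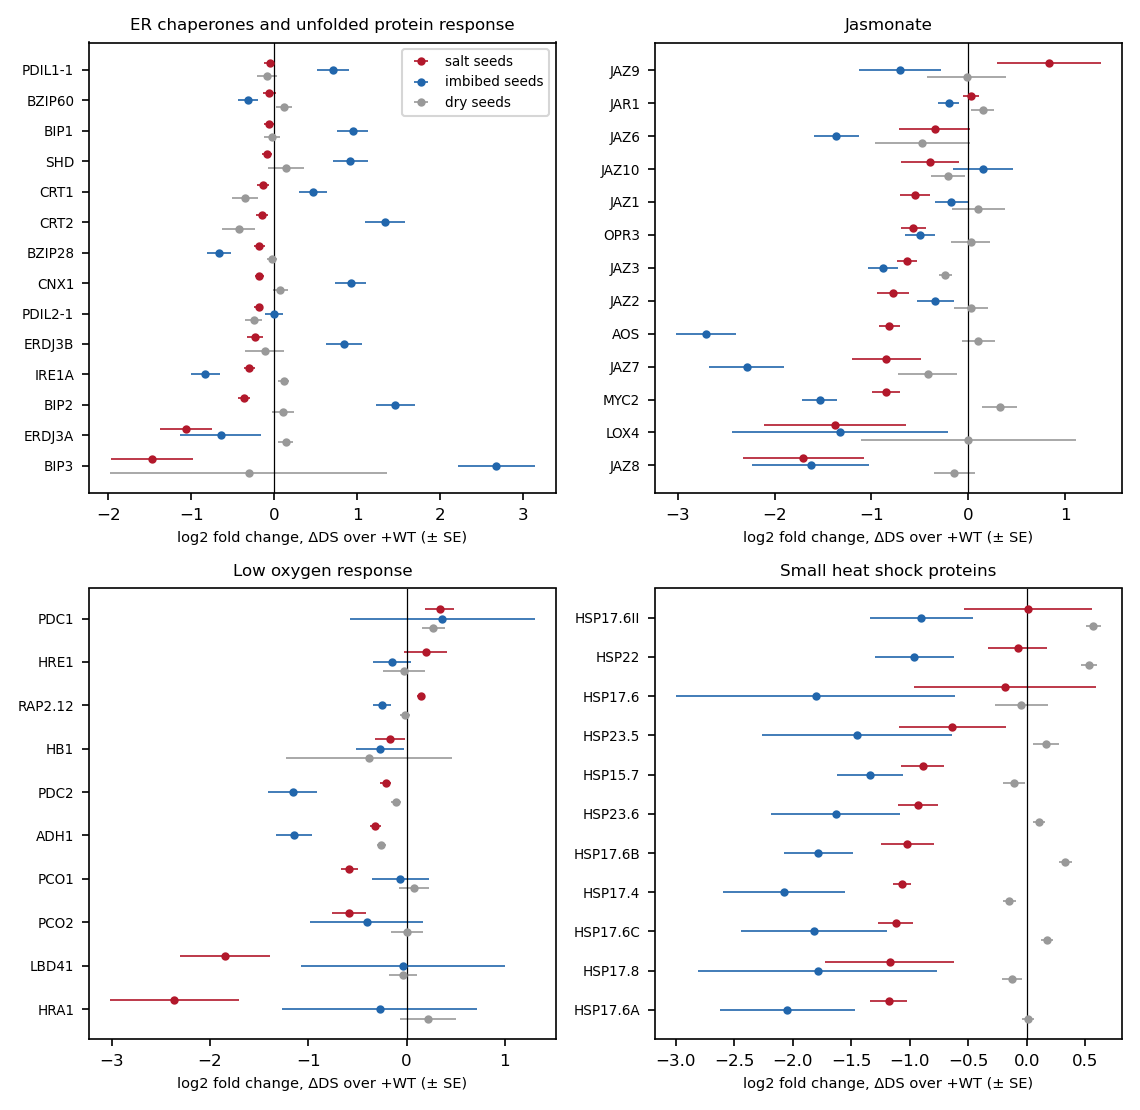
Log2 fold changes, ΔDS over +WT, with SE, of all members of 4 gene lists in salt (red), imbibed (blue) and dry (grey) seeds, from the authors' deposited tables. Most ER chaperones lie left of 0 in salt and right of 0 in imbibed seeds, and HRA1 and LBD41 are far left in salt only, with long error bars.

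Few genes of sodium handling passed the test. Of 14 sodium and potassium transport genes 1 rose and 1 fell, a share near the 15.5% of all genes. These were the plasma membrane proton pumps AHA2 (0.25 ± 0.094) and AHA1 (-0.17 ± 0.053) in the authors' deposited table, and AHA1 does not pass when scaled by library totals. The sodium exporter SOS1 (881 counts in ΔDS, 916 in +WT), its activators SOS2 and SOS3 and the vacuolar exchangers NHX1 and NHX2 did not pass, with fold changes between -0.10 and 0.08 log2 units. When scaled by library totals 3 of the 14 are higher and 0 lower, against 22.5% and 2.56% of all genes. Of 15 dehydration and cold genes 3 rose and 2 fell, against 7.63% and 7.87% of all genes. With that scaling 5 of the 15 are higher and 2 lower. The dehydrin ERD14 had 387 counts in ΔDS and 123 in +WT seeds (1.66 ± 0.17), RD29A 4167 in ΔDS and 2936 in +WT (0.51 ± 0.071) and COR47 101 in ΔDS and 51.7 in +WT (0.97 ± 0.27) in the authors' deposited table. The seed dehydrins RAB18 (-0.40 ± 0.051) and XERO1 (-0.46 ± 0.047) were lower. Of 10 proline and raffinose genes SIP2 rose (0.17 ± 0.053) and GOLS1, which makes galactinol for raffinose sugars, fell (-0.59 ± 0.069) in the authors' deposited table. With scaling by library totals 5 of the 10 are higher and 1 lower, against 22.5% and 2.56% of all genes.

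The abscisic acid, gibberellin, light and clock lists had 1 or 2 higher members each, against 7.63% of all genes higher and 7.87% lower. In the abscisic acid list 1 of 40 rose and 8 fell, the synthesis gene ABA1 (-0.29 ± 0.051) and the kinase gene SNRK2.3 (-0.35 ± 0.063) among them in the authors' deposited table. With scaling by library totals 8 of the 40 are higher and 2 lower, against 22.5% and 2.56% of all genes. DOG1, the main dormancy gene, had 3702 counts in ΔDS and 3699 in +WT seeds. In the gibberellin list 2 of 19 rose and 0 fell, the synthesis genes CPS (329 counts in ΔDS, 184 in +WT) and GA20OX3 (4252 in ΔDS, 3224 in +WT), and they stood at -0.52 and -0.45 log2 in imbibed seeds, with differences of 1.36 (0.0004) and 0.85 (0.00048). Of 15 light signalling genes SPT was higher (0.53 ± 0.17) and PIF1 (-0.25 ± 0.049), PIF7 (-1.10 ± 0.31) and PHYD (-0.24 ± 0.057) were lower in the authors' deposited table. Of 12 clock genes 1 rose and 3 fell. The clock gene PRR5 was higher in salt (0.58 ± 0.16) and lower in imbibed seeds (-0.60 ± 0.20) in the authors' deposited tables, a difference of 1.18 (0.000551), while PRR7, PRR9 and ELF3 were lower in both. The decreases of PIF1, PHYD, PRR7, PRR9 and ELF3 in salt do not pass when scaled by library totals. With that scaling the gibberellin list has 6 higher and 0 lower, the light list 5 higher and 1 lower and the clock list 3 higher and 0 lower, where 22.5% of all genes are higher. The aquaporin PIP2A rose in salt and fell in imbibed seeds, with 232 counts in ΔDS and 135 in +WT salt seeds (0.78 ± 0.17) and -0.93 ± 0.19 in imbibed seeds in the authors' deposited tables (1.71, 1.82e-08). Of 21 photosynthesis genes 0 rose and PSBP and LHCB4.1 fell, and neither passes when scaled by library totals.

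Genes of antioxidant and iron metabolism split by member, with 3 of 17 antioxidant genes higher and 6 lower and 3 of 9 iron genes higher and 2 lower. Among all genes 7.63% were higher and 7.87% lower. Scaled by library totals the list counts are 7 and 3 for antioxidant genes and 5 and 1 for iron genes, against 22.5% and 2.56% of all genes. All 3 catalase genes fell, CAT1 (-0.46 ± 0.078), CAT2 (-0.17 ± 0.049) and CAT3 (-0.46 ± 0.054), as did CSD3, PER1 and DHAR1, and the peroxidase genes APX1 (0.63 ± 0.18) and APX3 (0.40 ± 0.066) and the superoxide dismutase CSD1 (0.26 ± 0.070) were higher in the authors' deposited table. CAT2, CSD3 and PER1 do not pass when scaled by library totals, and neither does FER2 below. Among iron genes FER3 (0.36 ± 0.10), NRAMP3 (0.55 ± 0.18) and OPT3 (0.61 ± 0.19) rose and FER2 (-0.18 ± 0.053) and BTS (-0.32 ± 0.057) fell in the authors' deposited table. The ferritin FER1 did not pass in salt (0.64 ± 0.24, adjusted p = 0.0574) and stood at -1.57 in dry seeds, a difference of 2.22 (1e-13). Oil breakdown genes moved by little: ICL, the isocitrate lyase of the glyoxylate cycle, had 219767 counts in ΔDS and 278847 in +WT seeds (-0.34 ± 0.043 in the authors' deposited table), 3 more of the 18 members fell and ACX2 rose, against 7.87% and 7.63% of all genes. Scaled by library totals the oil breakdown list turns to 8 higher and 2 lower of 18, against 22.5% and 2.56% of all genes.

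**Figure D5:**
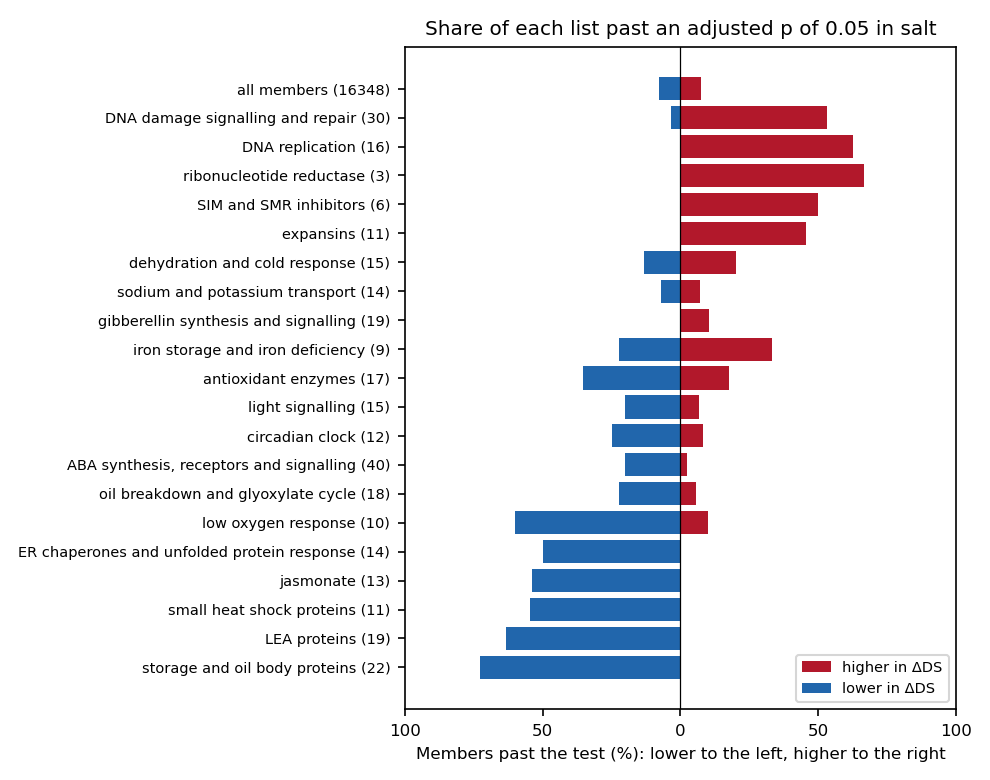
Share of the members of 20 gene lists that passed an adjusted p of 0.05 in salt-imbibed seeds, higher in ΔDS to the right and lower to the left, with the number of members in brackets and all 16348 genes on top. DNA damage and replication genes point right and storage, LEA, jasmonate and ER chaperone genes point left.

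Growth and structural families showed some increases. Expansins, which loosen cell walls, rose in 5 of 11 cases, against 7.63% of all genes, and fell in 0, with EXPA1 at 3188 counts in ΔDS and 1509 in +WT seeds (1.08 ± 0.24 in the authors' deposited table). Beta tubulins rose in 3 of 7 cases, against 7.63% of all genes, and fell in 0. In imbibed seeds 10 of the 11 expansins and 5 of the 7 tubulins were higher and 0 lower, against 23% and 21.8% of all genes. The expansin median was 1.46 log2 there and 0.91 in salt. The difference, salt minus imbibed, was negative for 2 expansins and 1 tubulin and positive for 0, against 4.06% and 7.16% of all genes. Of 41 histone genes 6 were higher and 2 lower, and when scaled by library totals 19 are higher and 0 lower, where 22.5% and 2.56% of all genes are. Among those that rose was the H3 gene AT5G65360 (0.84 ± 0.14 in the authors' deposited table). The elongation factor genes AT1G07940 and AT5G60390 were the most abundant translation genes that rose (0.31 ± 0.043 and 0.16 ± 0.040). Among large families 9 of 242 pentatricopeptide repeat genes were higher and 3 lower, and 5 of 166 F-box genes were higher and 8 lower, all below the shares of all genes. Of 91 P450 genes 8 were higher and 11 lower, a share lower above that of all genes. Scaled by library totals the counts are 41 higher and 0 lower, 16 higher and 0 lower, and 12 higher and 6 lower in that order. The NAC gene NAC053 (0.98 ± 0.094) and the WRKY gene WRKY25 (1.68 ± 0.19) rose in the authors' deposited table. Of 84 genes annotated as ncRNA, 1 was higher and 14 were lower, against 7.63% and 7.87% of all genes.

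Auxin-responsive SAUR genes and sugar transferases gave larger single changes. Of 14 SAUR genes 4 fell, against 7.87% of all genes, and 0 rose. Scaling by library totals gives 2 higher and 4 lower, against 22.5% and 2.56% of all genes. AT1G72430 had 71.2 counts in ΔDS and 209 in +WT seeds (-1.56 ± 0.21 in the authors' deposited table). Of 74 UDP-glycosyltransferase genes, which attach sugars to small molecules, 8 rose and 6 fell, shares near those of all genes. When scaled by library totals 15 of the 74 are higher and 4 lower, against 22.5% and 2.56% of all genes. AT2G36780 had 1142 counts in ΔDS and 338 in +WT seeds (1.76 ± 0.10 in the authors' deposited table), and GT72B1 71.9 in ΔDS and 9.90 in +WT (2.86 ± 0.43). GT72B1 reached the mean of 10 only through its ΔDS counts.

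The most abundant genes that passed moved by less than 1 log2 unit. Beside storage genes the lower ones were the defensin-like LCR67 with 315913 counts in ΔDS and 434879.5 in +WT seeds, the LEA-type M17 with 259976 in ΔDS and 372213 in +WT, and AT5G35660 of a glycine-rich family with 204953 in ΔDS and 382934 in +WT. AT5G35660 had an SE 3.01 times the median of like genes in the authors' deposited table. The abundant higher genes included the aconitase ACO3 of the citric acid cycle (0.19 ± 0.044), the subtilase ARA12 (0.33 ± 0.053) and the ribosomal protein genes RP1 (0.25 ± 0.047), emb2386 (0.24 ± 0.046) and P40 (0.14 ± 0.041) in the authors' deposited table.

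Some changes were near all-or-none. AT2G18193, annotated as a P-loop nucleoside triphosphate hydrolase, had 1019 counts in ΔDS and 4.85 in +WT seeds (7.71 ± 0.94 in the authors' deposited table, with an SE 8.55 times that of like genes). NHL22 (AT4G09590) had 223 counts in ΔDS and 2.18 in +WT seeds, and the next gene AT4G09595 653 in ΔDS and 31.8 in +WT (6.68 ± 0.62 and 4.36 ± 0.20 in the authors' deposited table). The genes that follow on chromosome 4, GASA3 and GASA2 of a gibberellin-regulated family, were lower at -1.01 ± 0.052 and -1.25 ± 0.068 in the authors' deposited table. AT4G09595, GASA3 and GASA2 were chosen for their place after the values were seen. NHL22 was also higher in imbibed (7.24) and dry (6.45) seeds in the authors' deposited tables. AT2G18193 and NHL22 were below 10 counts in +WT seeds and reached the mean of 10 only through their ΔDS counts. Genes near 0 in +WT and present in ΔDS seeds were AT4G25330 (28.3 counts in ΔDS), AT1G37070 (22.3), AGL62 (20.6), AT4G08100 (30.5), AT5G57126 (29.2), AT1G30170 (53.3), AT4G08115 (27.7) and AT1G25209 (38.4), and no fold is given for them. These genes reached the mean of 10 almost only through their ΔDS counts. A level of at least 20 in the higher group was also required of the largest changes named. The largest decreases outside the groups above were in rare transcripts. AT5G24155, annotated as an oxidoreductase, had 20.5 counts in ΔDS and 86.2 in +WT seeds (-2.07 ± 0.33 in the authors' deposited table), AT3G39230 8.37 in ΔDS and 39.0 in +WT (-2.22 ± 0.56) and the MATE efflux family gene AT1G51340 4.54 in ΔDS and 22.5 in +WT (-2.31 ± 0.69). AT3G39230 and AT1G51340 reached the mean of 10 only through their +WT counts.

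Genes of 1 direction also sat side by side. There were 32 runs of 3 or more neighbouring members called in the same direction, in part tandem copies whose reads may not be told apart. With 7.63% of all genes higher and 7.87% lower, some runs arise without any link between neighbours, and their number was not worked out. The longest, at chr3:9106000-9123562, held 6 higher genes, among them the receptor-like protein genes RLP40 (0.48 ± 0.10), RLP41 (1.197 ± 0.16) and RLP42 (1.202 ± 0.18 in the authors' deposited table). The UDP-glycosyltransferase genes on chromosome 3, AT3G46680, AT3G46690 and AT3G46700, had 67.0, 80.9 and 54.0 counts in ΔDS and 25.6, 9.90 and 1.08 in +WT seeds. AT3G46690 and AT3G46700 reached the mean of 10 only through their ΔDS counts. Raised damage genes also stood in such runs, PARP2 with SAG21 and AT4G02400, RAD17 with AT5G66120 and PAD2, and SMR1 with NAC053, HB2 and AT3G10530. The catalase genes CAT1 and CAT3 are neighbours with AT1G20640 in a lower run.

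Most of the salt calls had a counterpart in imbibed seeds. Of 1246 genes higher in salt and tested there, 916 (73.5%) were also higher in imbibed seeds, which is 26.8% of the higher calls there, and 1091 of 1286 lower genes (84.8%, or 29.1%) were lower in both, where 23% of all genes were higher and 21.8% lower in imbibed seeds. In the opposite direction there, 36 genes higher in salt were lower and 10 lower in salt were higher. With dry seeds the shared calls were 131 higher (11.6% of the salt calls and 27.9% of the dry ones) and 227 lower (17.7% and 46.0%), where 3.05% of all genes were higher and 3.24% lower, and 7 higher and 49 lower genes of salt were called in the opposite direction. Tested directly by an approximate z test, the genotype effect differed between salt and imbibed seeds for 1832 of 16337 genes (11.2%), more positive in salt for 1169 and more negative for 663, and between salt and dry seeds for 964 of 15509 (6.22%), with 270 and 694. Scaling both tables by library totals turns the balance against dry seeds to 436 more positive and 330 more negative. With a t distribution of 8 degrees of freedom 0 genes differ from imbibed seeds after adjustment (3112 at an unadjusted p below 0.05) and 82 from dry seeds. Other genes with large differences were, against imbibed seeds, DIN2 (2.51), a glycosyl hydrolase with 540.4 counts in ΔDS and 122 in +WT salt seeds, and ERF1 (2.21), an ethylene response factor that did not pass in salt. More negative in salt were AT1G68500 (-2.71) and UGT71B1 (-2.58). Against dry seeds they were PARP2 (3.90), AT2G17660 (3.68), TK1A (3.53) and the vacuolar processing enzyme ALPHA-VPE (3.501), with 302 counts in ΔDS and 44.1 in +WT salt seeds.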

How the data were processed

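RNA was sequenced from salt-imbibed, imbibed and dry seeds of both genotypes, 3 libraries of each, and the files used hold 1 table of results per condition. Reads were aligned with HISAT2 to TAIR10 and compared with DESeq2, per the submitters' processing notes. The read counter, annotation and strand setting were not given in the sources used here. The authors deposited, per the file headers, a mean normalised count per gene (a signal averaged over 6 libraries), a log2 fold change with its SE, a Wald statistic (a score) and a p-value with its adjusted p-value.

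Depth per library is not in these values, so precision is read from the SE. Genes with a mean of at least 10 were kept, and the authors' deposited adjusted p at 0.05 was the test. The test planned for counts was not used because no counts per library were in the files. Differences between conditions used an approximate two-sided z test with Benjamini-Hochberg adjustment. Group means assume 3 libraries against 3. On simulated data 57.5%, 84.0% and 97.0% of 200 genes changed by 0.5, 1 and 2 log2 units were recovered among 16348 genes in salt. For the difference from imbibed seeds these shares were 11.5%, 62.0% and 92.0% of 200 among 16337 genes, and from dry seeds 36.5%, 69.0% and 87.5% among 15509. The simulated errors were normal with the deposited SEs, and the same SEs were used in the test. The shares therefore cannot show whether those SEs are right. They were found with 200 changed genes, where 2534 were called in the salt data.

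Locus names matched the RefSeq annotation of TAIR10.1 for 16328 members, and sequences were read there. The genes, lists and tests were chosen with earlier results of these data known. Named genes are FLOE1 to FLOE3 and neighbours, the 12 largest changes and 8 most abundant calls each way, up to 4 members of each list each way, the 6 largest differences each way and runs of 3 or more neighbours; other list members are named where a list is described, and these were chosen after their values were seen. The list counts include 2 members that are not reported here. Alternatives were other scalings, adjustment sets, mean and fold limits, a length correction and a t distribution. The tools were pandas 2.3.3 and numpy 2.4.6 in Python 3.11.15, statsmodels 0.14.6, scipy 1.17.1 and matplotlib 3.10.9.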

Additional observations from a re-analysis of the deposited data

Results flagged for a closer look

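The genotype effect, ΔDS over +WT, differed between conditions by a test of the difference itself for 1832 of 16337 genes between salt and imbibed seeds and for 964 of 15509 between salt and dry seeds, at a Benjamini-Hochberg adjusted p of 0.05 from an approximate z test on the authors' deposited fold changes and SEs. The values below are differences in log2 units, salt minus the other condition.

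Among the genes described, the effect in salt was lower than in imbibed seeds for BIP3 (-4.15), AT1G68500 (-2.71), UGT71B1 (-2.58), BIP2 (-1.82), CRT2 (-1.48), CNX1 (-1.10), ERDJ3B (-1.08), BIP1 (-1.01), SHD (-1.005) and CYP94C1 (-0.87). It was higher than in imbibed seeds for PARP2 (0.54), RNR1 (0.54), FLOE1 (0.58), GA20OX3 (0.85), GMI1 (0.93), TK1A (1.04), PRR5 (1.18), CPS (1.36), TSO2 (1.45), PIP2A (1.71), BRCA1 (1.93), ERF1 (2.21) and DIN2 (2.51). In FLOE1 the higher value is a smaller decrease.

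Against dry seeds the effect in salt was lower for HRA1 (-2.58) and LBD41 (-1.81). It was higher for FLOE1 (0.53), FER1 (2.22), ALPHA-VPE (3.501), TK1A (3.53), AT2G17660 (3.68), PARP2 (3.90) and TSO2 (4.82). The SEs of HRA1 and LBD41 in salt were 8.46 and 5.91 times those of genes of like abundance.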

How the results depend on the processing

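No paired analysis was possible because the tables hold no values per library, and leaving out a library was not run for the same reason. Of the 2534 genes called in salt, 297 (238 higher, 59 lower) changed at least 2-fold. Scaling by library totals gave 4092 calls (3674 higher, 418 lower), 1665 of them shared with the deposited calls. A t distribution with 4 degrees of freedom gave 3 calls (2 higher, 1 lower). The count stayed within 1.5 times of 2534 when adjusted over all genes with a p (2379), adjusted over the genes kept (2605), with a mean of at least 5 (2558) or 50 (2396), centred on the median gene (2525) or with the length trend removed (2509). For salt minus imbibed, a t distribution with 8 degrees of freedom gave 0 differences (0 higher, 0 lower) where 3112 genes had an unadjusted p below 0.05. For salt minus dry, scaling by totals gave 436 higher and 330 lower, and the t distribution 82 (32 higher, 50 lower). Of the 189 genes named, scaling by totals ended the call of 23 lower genes and gave one to 6 higher genes, adjustment over all genes with a p ended 2 higher and 3 lower calls, the length correction ended 1 lower call, and the t distribution ended 83 higher and 66 lower calls; 0 calls changed sign. The cause of these changes was not tested.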
